A study of Mus musculus with 6 samples.

Results

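CA sites without a downstream CG partner are cytosines followed by adenine that were listed for 5-formylcytosine (5fC) or 5-hydroxymethylcytosine (5hmC) with at least 10 reads on chromosomes 1 to 19. A site was kept when its own table listed no CG dyad 20 to 23 bases downstream along its strand, counted to the cytosine of the dyad on that strand, and none within 3 bases. A CG dyad is the pair of cytosines, 1 on each strand, of a CG dinucleotide. The rule kept 146718 CA sites of the 6248342 listed 5fC sites and 125278 CA sites of the 20807956 listed 5hmC sites, and 20129 CA sites were kept in both tables. They are called selected CA sites here. The cells were E14 mouse embryonic stem cells, grown on gelatin in medium with serum and LIF, and the labels describe no treatment or mutation. There were 2 technical replicate libraries of 5fC and 2 of 5hmC from a culture at passage 14, and 2 of 5hmC from another culture at passage 12. Each table holds 1 read number per cytosine for its libraries together, so the spread between replicates is unknown and the marks were not tested against each other. A single 5hmC table is named in the labels of the 2 cultures, and the share of the culture at passage 12 in it is unknown.

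5hmC is the first oxidation product that TET enzymes make from 5-methylcytosine, and 5fC is the next. In embryonic stem cells the de novo methyltransferases DNMT3A and DNMT3B also place some methyl groups outside CG, mostly at CA, which the maintenance methyltransferase DNMT1 does not copy after replication as it does at CG. In the assay, Pvu-Seal-seq, the enzyme PvuRts1I cuts DNA a short fixed distance downstream of a modified cytosine, and the modified base is tagged and captured. The enzyme is known to cut best where another cytosine lies on the opposite strand across the cut, so a cut end can have a candidate cytosine on each side. A CA site with a CG dyad at that distance can share its cut with the dyad, which is why CA sites without one were looked at separately.

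The values that chose the sites are given as a description. Of the autosomal CA sites, 390202 of 671453 had at least 10 reads for 5fC, and 507953 of 2365234 for 5hmC. A CG dyad of the same table lay 20 to 23 bases downstream of 60.5% of the 5fC and 72.7% of the 5hmC CA sites with at least 10 reads. A further 1.92% and 2.65% had a dyad within 3 bases, which left 37.6% of 5fC and 24.7% of 5hmC CA sites. At the edges of the distance window the tables fell steeply. For 5fC a dyad lay exactly 20 bases downstream of 9.37% of CA sites and 23 bases downstream of 10.2%, against 0.642% at 19 bases and 0.759% at 24 bases. For 5hmC the shares were 12.2% at 20 bases and 6.18% at 23 bases, against 0.754% at 19 and 1.24% at 24 bases. The read limit cut through the body of the distribution: 17221 5fC sites meeting the other rules had 10 reads and 18350 had 9, and for 5hmC 20740 had 10 and 27138 had 9.

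Most selected CA sites had reads just above the limit. The median was 15 reads for 5fC (25th to 75th percentile 12 to 20, 95th 34) and 14 for 5hmC (11 to 19, 95th 35). CA sites with a CG partner had a median of 17 5fC reads and 14 5hmC reads, and CG sites with at least 10 reads had 18 for both marks. The selected sites held 2.75% of autosomal 5fC reads and 0.857% of autosomal 5hmC reads.

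The sites were unevenly split between the strands. Of the selected sites, 56.7% of 5fC sites (95% Wilson interval 56.4 to 56.9%) and 58.4% of 5hmC sites (58.1 to 58.7%) lay on the plus strand. CA sites with a CG partner were uneven to the same degree, at 56.7% for 5fC and 58.1% for 5hmC. Among all sites with at least 10 reads, CC went the other way, with 24.8% of 5fC and 21.8% of 5hmC CC sites on the plus strand, while CT sites stood at 55.3% and 55.6%. Non-CG sites together were at 49.9% and 49.8%, and CG sites at 50.0% for both marks. The total was thus even between strands and the split into CA, CC and CT was not. A selected site on the minus strand also had a listed same-strand cytosine 2 bases downstream, which makes its sequence CAC, more often than one on the plus strand: 0.689% against 0.262% for 5fC and 2.55% against 0.347% for 5hmC. The labels do not say how cut ends were assigned to cytosines, and the part of that step in the strand split was not tested. The intervals cover counting error only, since neighbouring sites can share cuts and reads carry no molecular identifiers.

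The question of whether the missing CG partner was missing from both tables was put to the table that the rule had not used. For most selected 5fC sites the 5hmC table listed a CG partner at any read number on either strand. One with at least 10 reads was listed for 44.8%. A 5hmC CG dyad lay 20 to 23 bases downstream of 55.9% of selected 5fC sites (interval 55.6 to 56.1%). At 30 to 33 bases downstream the share was 4.77%, and at 20 to 23 bases upstream 5.43%. By single distance, 7.74% had a 5hmC dyad at 20 bases, 18.5% at 21, 19.5% at 22 and 10.5% at 23, against 0.819% at 19 and 1.13% at 24 bases.

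Selected 5hmC sites had no such excess of comparable size. A 5fC CG dyad lay 20 to 23 bases downstream of 0.958% of them (interval 0.905 to 1.01%), 30 to 33 bases downstream of 1.94% and 20 to 23 bases upstream of 3.11%. The rule removed any site with a dyad of its own table in that window, so only dyads listed in the other table alone could appear there, and these are unequal in number. On the autosomes 7552433 dyads were listed for 5hmC without 5fC, 67.8% of the 5hmC dyads, and 274868 for 5fC without 5hmC, 7.12% of the 5fC dyads. Counting only these dyads, the shares for selected 5fC sites were 55.9% at 20 to 23 bases downstream, 2.25% at 30 to 33 bases and 2.31% at 20 to 23 bases upstream. For selected 5hmC sites they were 0.958%, 0.164% and 0.240%. The excess at the partner distance was thus present in both tables on this count. In all, 81959 5fC sites and 1200 5hmC sites had such a dyad at the partner distance. At 30 to 33 bases downstream 3300 and 205 sites had one, so not all of these sites belong to the excess.

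**Figure D1:**
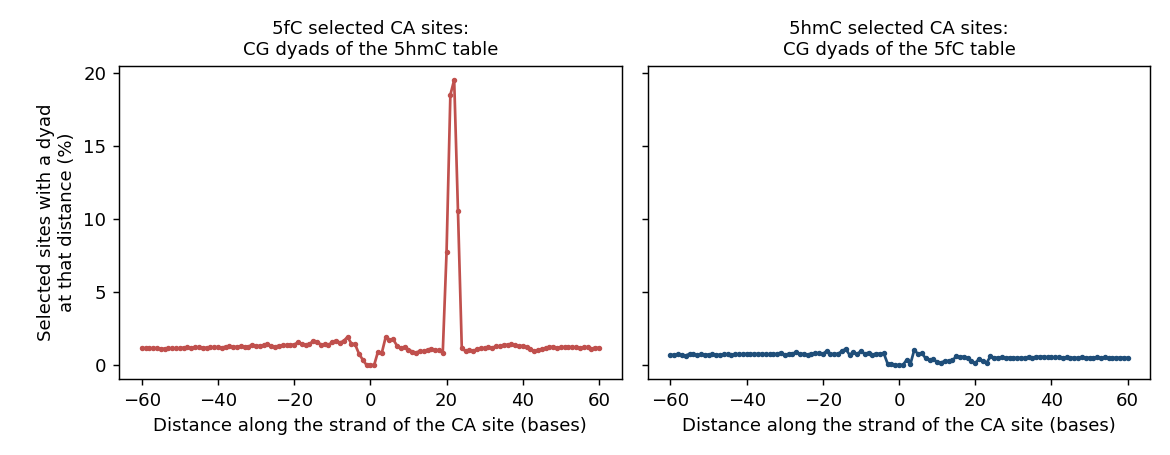
Share of selected CA sites (%) with a CG dyad of the other table at each distance in bases along the strand of the site, for the 146718 5fC sites (left) and the 125278 5hmC sites (right). For 5fC sites the 4 distances from 20 to 23 bases stand at 7.74 to 19.5%, while for 5hmC sites no distance stands out on this scale.

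The 5hmC dyads downstream of selected 5fC sites were moderately deep. Their reads, summed over both strands and taking the deepest dyad in the window, had a median of 21 (25th to 75th percentile 11 to 34). The 5hmC dyads downstream of 5fC CA sites with a CG partner had a median of 43 reads (25 to 66). With 5hmC dyads of at least 10 reads alone, 44.8% of selected 5fC sites still had one at the partner distance. Of the dyads concerned, 86.1% were listed for 5hmC on the strand opposite to the CA site, which is the strand that faces it across the cut, and that strand held 63.3% of their reads. For the 1200 selected 5hmC sites with a 5fC dyad it was the other way round, with 37.7% of the dyads listed for 5fC on the opposite strand and 32.6% of their reads there. At CA sites with a CG partner in their own table, that dyad was listed on the opposite strand for 98.0% of 5hmC and 73.8% of 5fC sites. The share of all listed dyads found on a given strand was not counted. Applying the rule to the CG dyads of both tables reduced the selected 5fC sites to 63145 and the selected 5hmC sites to 123399.

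A partner need not be in CG, so the opposite strand was searched for listed non-CG cytosines 21 to 24 bases downstream, where the opposite cytosine of a CG dyad would lie. Here the tables differed in the other direction. Such a cytosine was listed for 3.91% of selected 5fC sites (interval 3.81 to 4.01%) and for 39.5% of selected 5hmC sites (39.2 to 39.8%). At 31 to 34 bases downstream the shares were 0.616% for 5fC and 0.697% for 5hmC, and at 21 to 24 bases upstream 0.947% and 1.67%. Within the window, the highest share for 5fC was 1.29%, at 22 bases. For 5hmC 6.70% of sites had the partner at 21 bases, 18.2% at 22, 9.98% at 23 and 5.82% at 24. Of the CA sites with a CG partner, 0.749% of 5fC and 3.87% of 5hmC sites had a non-CG partner as well. At 31 to 34 bases downstream and 21 to 24 bases upstream of them the shares were 1.18% and 1.52% for 5fC. For 5hmC they were 1.76% and 2.80%. The CG dyad of such a site takes up bases of the searched window, so its shares are not comparable with those of selected sites. The partner distance was not the only one with a raised share. At 43 to 46 bases downstream, a window chosen after the values were seen, an opposite-strand non-CG cytosine was listed for 4.31% of selected 5fC sites (interval 4.21 to 4.42%), above the 3.91% at 21 to 24 bases, and for 2.01% of selected 5hmC sites (1.93 to 2.09%). A cytosine was listed there for 4919 of the 81959 selected 5fC sites with a 5hmC CG dyad at the partner distance (interval 5.84 to 6.17%), against 977 of the 50650 with no listed partner (1.81 to 2.05%). The non-CG lists themselves differ in length, with 1539320 autosomal sites for 5fC and 4849174 for 5hmC, and the part of this difference in the shares was not tested.

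CA was the most frequent dinucleotide at the partner cytosine. Of the 5730 5fC partners 52.8% were CA (interval 51.5 to 54.0%), 27.2% CT and 20.0% CC. Of the 49482 5hmC partners 62.6% were CA (62.2 to 63.0%), 17.9% CT and 19.5% CC. CA made up 43.6% of all autosomal non-CG sites for 5fC and 48.8% for 5hmC. Opposite-strand cytosines 31 to 34 bases downstream, of which there were 904 for 5fC and 873 for 5hmC, were CA in 44.5% (interval 41.3 to 47.7%) and 52.0% (48.7 to 55.3%).

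The limit of 10 reads applied to the selected site and not to its partner. Partner reads had a median of 14 for 5fC and 9 for 5hmC. The partner was itself a selected CA site in 37.4% of 5fC cases and 29.4% of 5hmC cases. Such mutual pairs numbered 1078 for 5fC and 7312 for 5hmC, so the sites of a pair are not independent of each other. Within a pair the deeper site had a median of 25 reads and the shallower 14 for 5fC, and 22 and 13 for 5hmC.

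**Figure D2:**
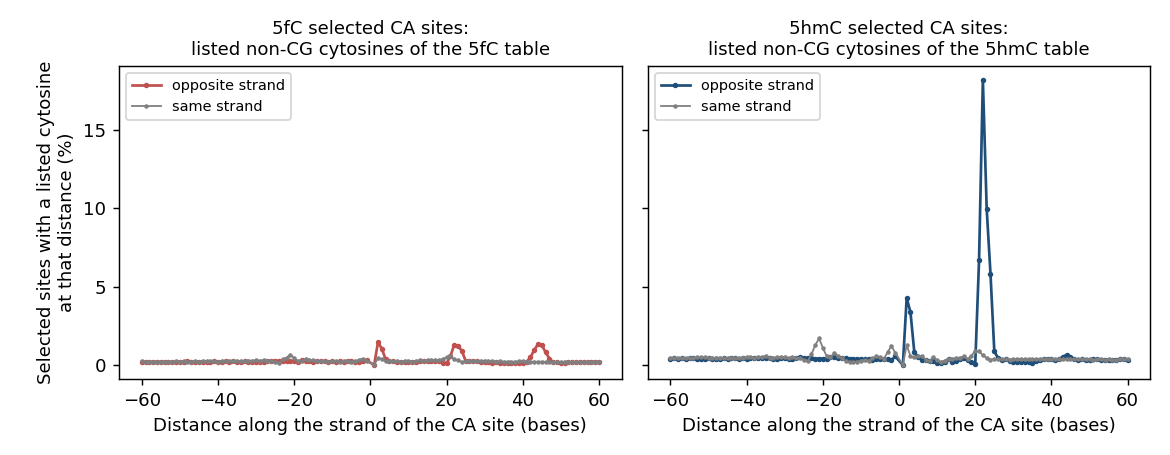
Share of selected CA sites (%) with a listed non-CG cytosine of the same table at each distance in bases along the strand of the site, on the opposite strand (coloured) and on the same strand (grey), for 5fC (left) and 5hmC (right). The opposite-strand peak at 22 bases reaches 1.29% for 5fC and 18.2% for 5hmC, another stands at 2 and 3 bases (1.45% and 4.28% at 2 bases), and for 5fC a further one at 43 to 46 bases reaches 1.33%.

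Close to the site, the opposite strand was also listed more often on the downstream side. A cytosine on the opposite strand 2 bases downstream means that the CA site lies in CAG, whose opposite strand reads CTG. It was listed for 1.45% of selected 5fC sites and 4.28% of selected 5hmC sites, against 0.248% and 0.304% at 2 bases upstream. At 3 bases downstream the shares were 1.05% and 3.36%, against 0.215% and 0.359% at 3 bases upstream. All 2127 5fC and 5360 5hmC opposite-strand cytosines at 2 bases downstream were listed as CT, as the CAG sequence requires. Of the CAG pairs, the opposite cytosine had under 10 reads in 29.4% of 5fC and 48.0% of 5hmC cases. The sequence around the sites, and so the share of CAG among all selected sites, was not analysed here, because it needs the mm9 genome.

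CG dyads between the site and its cut were unevenly spread. At single distances of 4 to 6 bases downstream, a dyad of the same table was listed for 1.05 to 1.27% of selected 5fC sites and 1.26 to 1.67% of selected 5hmC sites. Averaged over single distances, a dyad of the same table lay 8 to 14 bases downstream of 0.607% of selected 5fC sites per distance, 8 to 14 bases upstream of 0.960% and 30 to 36 bases downstream of 0.741%. For 5hmC the corresponding shares were 0.447%, 1.40% and 0.933%. Most selected sites still lay near CG dyads of their own table. One was listed within 100 bases of 62.1% of 5fC sites and 82.0% of 5hmC sites, and within 1000 bases of 93.3% and 99.7%. The median distance to the nearest was 62 bases for 5fC and 38 for 5hmC.

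Putting the partners together, each selected site was placed in the first of 4 groups that it met. For 5fC, 55.9% had a CG dyad of the 5hmC table, 3.82% a non-CG partner in the 5fC table, 5.80% a non-CG partner in the 5hmC table alone, and 34.5% (50650 sites; interval 34.3 to 34.8%) had no listed partner in either table. For 5hmC, 0.958% had a CG dyad of the 5fC table, 39.5% a non-CG partner in the 5hmC table, 1.41% one in the 5fC table alone, and 58.2% (72864 sites; 57.9 to 58.4%) had none. Both strands gave close values: 34.3% of plus-strand and 34.9% of minus-strand 5fC sites, and 57.7% and 58.8% of 5hmC sites, had no listed partner. The listing rule is unknown, so absence from a table does not show absence of the mark.

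The groups shifted with the reads at the site. For 5fC the share with a 5hmC CG partner was 56.8% at 10 to 11 reads, 42.9% at 32 to 63 reads, 15.4% at 64 to 127 reads and 0.769% of the 260 sites with 128 or more reads. For 5hmC the share with a non-CG partner in its own table was 32.1% at 10 to 11 reads, 44.9% at 16 to 31 reads and 64.6% at 64 to 127 reads, but 31.3% of the 150 sites with 128 or more reads. The group without any listed partner was smallest between the ends of the read range. It held 32.9% at 16 to 31 reads for 5fC and 32.6% at 64 to 127 reads for 5hmC, but 68.5% of 5fC and 66.0% of 5hmC sites with 128 or more reads.

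**Figure D3:**
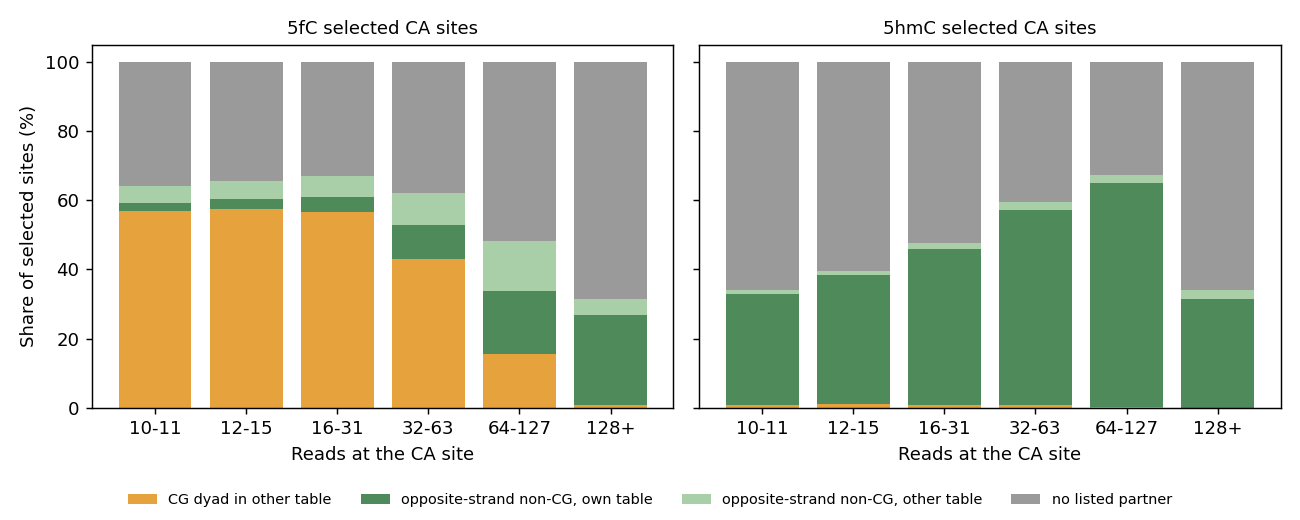
Share of selected CA sites (%) by the partner found for them, in bins of reads at the site, for 5fC (left) and 5hmC (right). Orange stands for a CG dyad in the other table, dark green for an opposite-strand non-CG cytosine in the own table, light green for one in the other table alone, and grey for none. Orange makes up 56.8% of the lowest 5fC bin and 0.959% of the lowest 5hmC bin, and grey makes up 68.5% of the deepest 5fC bin and 66.0% of the deepest 5hmC bin.

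CT and CC sites chosen by the same rule served as a comparison. For 5fC 37.6% of CA sites passed it, against 34.8% of CT and 32.3% of CC sites, and for 5hmC 24.7% of CA, against 13.3% of CT and 15.6% of CC sites. A 5hmC CG dyad at the partner distance was found for 55.9% of the CA sites that passed for 5fC, below the 67.3% of CT and 64.5% of CC sites. A 5fC CG dyad was found for 0.958% of the CA sites that passed for 5hmC, against 1.70% of CT and 1.36% of CC sites. A non-CG partner on the opposite strand was found for 3.91% of the CA sites for 5fC, against 2.58% of CT and 3.26% of CC, and for 39.5% of the CA sites for 5hmC, against 31.2% and 37.8%.

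Selected CA sites were listed for the other mark less often than CA sites with a CG partner. The same base and strand appeared in the 5hmC table, at any read number, for 52.3% of the selected 5fC sites (interval 52.0 to 52.5%), against 71.4% of 5fC CA sites with a CG partner and 87.0% of 5fC CG sites with at least 10 reads. Of the selected 5hmC sites 23.9% (23.7 to 24.1%) were listed for 5fC, against 42.8% of 5hmC CA sites with a CG partner and 37.6% of CG sites. For 5fC the gap was present in each bin of equal reads up to 32 to 63. At 10 to 11 reads 43.1% of selected 5fC sites and 64.0% of those with a CG partner were listed for 5hmC, and at 32 to 63 reads 79.4% and 83.8%. At 64 to 127 reads the order was the other way, with 93.9% (92.0 to 95.4%) and 92.3% (91.2 to 93.3%), whose intervals overlap. So it was at 128 or more reads, with 99.2% of 260 sites (97.2 to 99.8%) and 95.1% of 142 sites (90.2 to 97.6%), again with overlapping intervals. For selected 5hmC sites and those with a CG partner the shares listed for 5fC were 12.6% and 31.3% at 10 to 11 reads, 58.1% and 72.9% at 32 to 63 reads, and 73.7% and 88.8% at 64 to 127 reads. At 128 or more reads they were 95.3% of 150 and 98.0% of 50 sites.

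Listing for the other mark also differed between the partner groups. Every group was defined in part by the other table. Even the group with a non-CG partner in its own table holds only sites without a CG dyad of the other table at the partner distance. The shares are therefore not independent of the grouping. Selected 5fC sites with a non-CG partner in their own table were listed for 5hmC in 82.6% of cases, those with a 5hmC CG partner in 51.1% and those with no listed partner in 46.6%. Selected 5hmC sites with a non-CG partner in their own table were listed for 5fC in 21.9% of cases and those with no listed partner in 24.5%. In bins of reads the gap was wider up to 127 reads. The shares were 10.5% and 13.2% at 10 to 11 reads, and 27.1% and 36.2% at 16 to 31 reads. At 64 to 127 reads they were 68.0% and 85.1%, but at 128 or more reads 95.7% and 94.9%. The 1200 selected 5hmC sites with a 5fC CG partner were listed for 5fC in 50.4% of cases, and those with a non-CG partner in the 5fC table alone in 37.6%. The 5fC sites with a non-CG partner in the 5hmC table alone were listed for 5hmC in 77.0% of cases.

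The 20129 CA sites selected in both tables made up 13.7% of the selected 5fC sites and 16.1% of the selected 5hmC sites. A further 15625 selected 5fC sites, 10.6%, had at least 10 5hmC reads but a 5hmC CG partner, which kept them out of the 5hmC selection. For 5hmC the corresponding number was 453 sites, 0.362%. Sites in both tables were deeper than those in one: they had a median of 19 5fC reads, against 14 at sites selected for 5fC alone, and a median of 19 5hmC reads, against 13 at sites selected for 5hmC alone. A non-CG partner on the opposite strand was listed for 17.1% of them in the 5fC table and for 37.4% in the 5hmC table, and for 14.7% in both tables. Sites selected for 5fC alone had one in 1.81% of cases and sites selected for 5hmC alone in 39.9%. The 81959 selected 5fC sites with a 5hmC CG dyad at the partner distance could not be selected for 5hmC. They count as selected for 5fC alone by construction, so the 17.1% and 1.81% do not compare like sites. For 60.2% of the sites in both tables neither table listed a non-CG partner.

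At these sites 5fC and 5hmC reads were loosely related, with a Spearman correlation of 0.28 over sites and a Pearson correlation of log2 reads of 0.44. The sites share the enzyme and the limit of 10 reads, and sites are not replicates. The median ratio of 5fC to 5hmC reads was 1.00 at these sites, 1.10 at the 95825 CA sites with a CG partner in both tables and 0.750 at CG sites with at least 10 reads in both. Relative to the autosomal ratio of summed reads, 0.389, a ratio at least 2 times as high was found for 67.2% of the shared selected sites. The same was found for 73.9% of CA sites with a CG partner in both tables and for 50.8% of all 2459737 autosomal sites with at least 10 reads in both tables. The median listed site had 12 reads for 5fC and 8 for 5hmC, and the part of the limit of 10 reads in the height of these shares was not tested. A ratio at most 0.5 times the autosomal one was found for 0.457% of the shared selected sites (92 sites), against 0.0908% of CA sites with a CG partner in both and 0.962% of all sites.

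**Figure D4:**
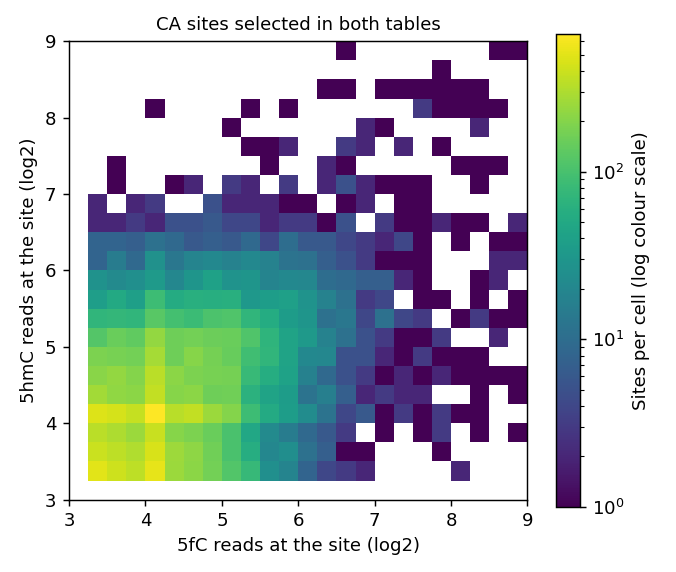
Reads at the CA sites selected in both tables, 5fC on the x axis and 5hmC on the y axis, both as log2, with the number of sites per cell in colour on a log scale; 89 of the 20129 sites lie beyond the plotted range. The sites crowd at the limit of 10 reads in both tables and spread widely for each mark (Spearman 0.28).

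Along the genome selected sites were more frequent where CG sites were. Over 23896 windows of 100 kb the number of selected sites had a Spearman correlation of 0.86 with the number of CG sites with at least 10 reads for 5fC and of 0.78 for 5hmC. The numbers of selected 5fC and 5hmC sites correlated at 0.81. Windows are not independent replicates. A window with any selected site held a median of 5 for both marks. The densest 1% of such windows, 211 for 5fC and 195 for 5hmC, held 4.90% of the 5fC and 5.52% of the 5hmC sites.

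Chromosomes 8 and 11 were the densest for both marks. Chromosome 8 held 89.2 selected 5fC and 95.2 selected 5hmC sites per Mb, and chromosome 11 97.6 and 96.3, against 59.3 and 50.7 over the autosomes. The other autosomes lay between 44.2 and 70.5 for 5fC and between 36.3 and 56.0 for 5hmC. Per 1000 CG sites with at least 10 reads, chromosomes 8 and 11 had 47.7 and 40.4 selected 5fC sites, against 44.2 to 56.0 on the other autosomes, so chromosome 11 was the lowest. For 5hmC chromosome 8 was the highest, with 21.7 per 1000 CG sites, and chromosome 11, with 18.1, lay within the 12.3 to 18.9 of the other autosomes. Chromosome 11 had the lowest share of selected sites among 5fC CA sites with at least 10 reads, 29.7%, while chromosome 14 had the highest for both marks, 43.3% for 5fC and 31.1% for 5hmC. Without chromosomes 8 and 11 the share of selected 5fC sites with a 5hmC CG partner was 56.7% and the share of selected 5hmC sites with a non-CG partner 38.6%.

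**Figure D5:**
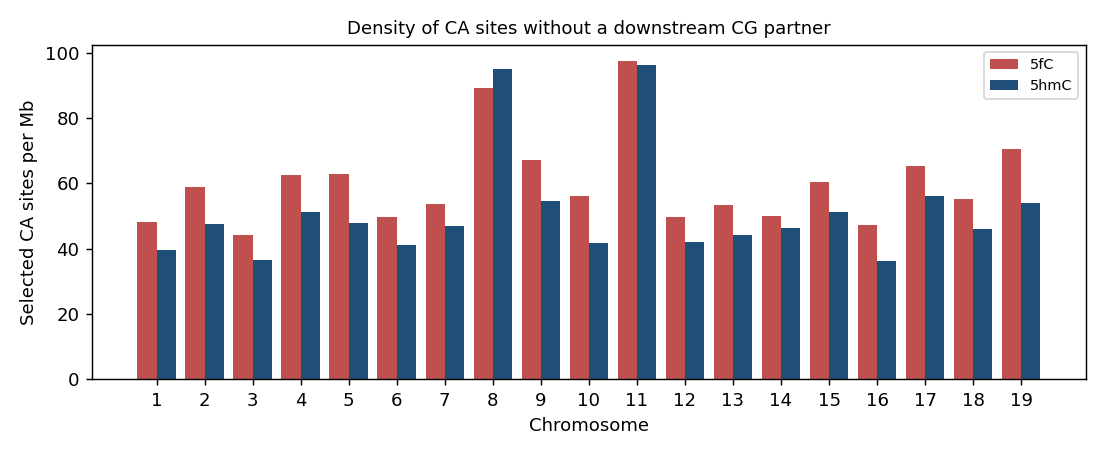
Selected CA sites per Mb on chromosomes 1 to 19 for 5fC (left bar of each pair) and 5hmC (right bar), taking the position of its last site as the length of a chromosome. Chromosomes 8 and 11 stand at 89.2 to 97.6 per Mb for both marks, and the others at or below 70.5.

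Selected sites were mostly scattered. The median distance to the nearest other selected site was 2773 bases for 5fC and 2513 for 5hmC. Another one lay within 25 bases of 4.94% of 5fC and 15.0% of 5hmC sites, and within 1000 bases of 29.7% and 34.7%. Chains of at least 5 sites with gaps of up to 100 bases numbered 43 for 5fC, with 467 sites, and 36 for 5hmC, with 337 sites. The longest had 66 sites for 5fC and 43 for 5hmC.

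The same 3 windows, in mm9 coordinates, held the most selected sites of each mark. Genes in them are not named, because the gene table used here is of another build. Chromosome 9 from 3000001 to 3100000 held 274 selected 5fC sites and 152 selected 5hmC sites, with 149 5fC and 255 5hmC CG sites at any read number. Chromosome 11 from 3000001 to 3100000 held 242 and 304 selected sites, among 959 and 1216 CG sites. Chromosome 2 from 98500001 to 98600000 held 158 and 116, with 76 and 194 CG sites. In the chromosome 9 and chromosome 2 windows selected CA sites thus outnumbered CG sites for 5fC. On chromosome 9, 90.5% of the 5fC and 90.1% of the 5hmC selected sites had no listed partner, and on chromosome 2 74.1% and 70.7%, above the genome-wide 34.5% and 58.2%. On chromosome 11 the shares without a partner were 65.3% and 48.7%. Median reads per selected site were 49 and 35.5 on chromosome 9, 209.5 and 74.5 on chromosome 2, but 17 and 19 on chromosome 11.

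The deepest selected sites lay in few places. The 4 windows with the most selected sites of 128 or more reads, counted over both tables, were these 3 and chromosome 9 from 35100001 to 35200000, a count chosen after the values were seen. They held 74.2% of the 260 selected 5fC sites with 128 or more reads and 69.3% of the 150 such 5hmC sites. The deepest site of both tables was position 98502498 on the plus strand of chromosome 2, with 33384 5fC and 33037 5hmC reads. In the 5hmC table it faced a CC cytosine with 4 reads 21 bases downstream on the opposite strand, at position 98502519. Position 35113039 on the plus strand of chromosome 9 followed for 5fC with 18081 5fC reads and had 6340 5hmC reads. Position 98502496 on the minus strand of chromosome 2, which lies 2 bases from the deepest site, had 12362 5fC and 1166 5hmC reads. In raw reads, these sites held similar numbers for both marks or more for 5fC than for 5hmC.

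Other deep sites had more 5hmC reads than 5fC reads. Raw reads are compared here, and the autosomal ratio of summed 5fC to 5hmC reads was 0.389. More 5hmC reads at a site therefore does not mean a ratio below the autosomal one. Positions 98507031 and 98506654 on the plus strand of chromosome 2 had 3872 and 3810 5fC reads, and 8091 and 7124 5hmC reads. Position 3035872 on the plus strand of chromosome 9 had 1124 5fC and 5435 5hmC reads. Of the other named sites, position 3005964 on the plus strand of chromosome 18 had 7559 5fC and 4819 5hmC reads, and position 3000118 on the minus strand of chromosome 9 had 4972 5fC and 3216 5hmC reads with an opposite-strand CA of 9 reads 22 bases away. Apart from that site and position 98502498, none of the sites named here had a listed partner in either table. Leaving out sites above 1000 reads removed 44 selected 5fC and 21 selected 5hmC sites. Over all selected sites, the shares with a CG dyad of the other table and with a non-CG partner stayed within their intervals. The partner groups, the bins of reads and the partner dinucleotides were not counted again in this setting.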

How the data were processed

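Both deposited tables hold whole-number read counts per listed cytosine from the authors, not normalized, as 1 count per site for the libraries of a table together. The submitters' processing notes name mm9, Bowtie, cutadapt, bcl2fastq and CASAVA, without versions. The assignment of cut ends, the choice of cytosines to list and the making of 5fC libraries are not given in the sources used.

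The listed cytosines hold 102305049 5fC reads and 264008048 5hmC reads in all, which is not the sequencing depth. Sites were matched by base, strand and distance, and shares have 95% Wilson intervals. Distances run along the strand of the CA site, and a partner on the opposite strand was sought 1 base further than in a CG dyad. The members, lists and distances were chosen with earlier results of these data known. Named sites are the 5 deepest of each table and of both tables, and windows the 3 with the most selected sites. Alternatives changed the least reads, the windows, the chromosomes, the tables searched and the deepest sites. Positions are 1-based. Simulated data with 20000 CA sites were used to test the selection of sites by CG dyads, with a check of the interval formula, and 4 of 4 checks passed. The searches of the opposite strand and of the other table were not part of these checks. The software was Python 3.11.15, numpy 2.4.6, pandas 2.3.3, scipy 1.17.1 and matplotlib 3.10.9.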

Additional observations from a re-analysis of the deposited data

Results flagged for a closer look

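CA sites outside chromosomes 1 to 19 were not part of the selection, and those that meet its other rules are given because each count exceeds 3, the limit set by a count of 0. Passing this limit does not test whether a count is unusual. On chromosome X there were 1476 such sites for 5fC and 786 for 5hmC, which is 61.7% and 31.7% of the CA sites with at least 10 reads there. On chromosome Y there were 461 for 5fC and 116 for 5hmC, or 93.7% and 75.8%. On the mitochondrial chromosome there were 638 for 5fC and 17 for 5hmC, or 89.6% and 94.4%. The autosomal shares were 37.6% and 24.7%. No library without the marks was used here, and the part of background in these counts was not tested.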

How the results depend on the processing

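No paired analysis was possible because libraries were pooled into 1 read number for each site of a table, so leaving out a library was not run either. The cause of the moves was not tested beyond what each setting removes. The order of the tables was kept for the partners in every setting that gave both values: more selected 5fC than 5hmC sites had a CG dyad of the other table, and more 5hmC than 5fC sites had a non-CG partner.

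The counts below are of selected 5fC sites, selected 5hmC sites and sites selected in both. They were 243963, 407071 and 40083 with at least 5 reads, and 38761, 29246 and 5514 with at least 20 reads. At 5 reads there were thus fewer 5fC than 5hmC sites. With the rule applied to the CG dyads of both tables there were 63145 selected 5fC and 123399 selected 5hmC sites, again fewer for 5fC. The sites selected in both stayed at 20129 by construction, so their share of selected 5fC sites could only rise in this setting. Chosen after the data were seen, the plus strand gave 83117, 73189 and 11711, and the minus strand 63601, 52089 and 8418. The share of selected 5fC sites also selected for 5hmC was 16.4% at 5 reads, 14.2% at 20 reads, 13.5% with a window of 18 to 25 bases, 13.0% with no dyad within 10 bases, 13.0% without chromosomes 8 and 11, 31.9% with no dyad in either table, 14.1% on the plus strand and 13.2% on the minus strand. The share of selected 5fC sites with a 5hmC CG dyad was 51.9% at 20 reads, 55.1% with no dyad within 10 bases, 56.7% without chromosomes 8 and 11 and, added later, 44.8% with dyads of at least 10 reads. For selected 5hmC sites and 5fC dyads it was 0.746% with no dyad within 10 bases and 0.496% with dyads of at least 10 reads. With no dyad in either table these shares are 0 by construction. The non-CG partner share was 3.09% for 5fC and 27.3% for 5hmC at 5 reads, 6.72% and 50.1% at 20 reads, 3.60% and 38.6% without chromosomes 8 and 11, 8.74% and 40.0% with no dyad in either table, 4.05% and 40.0% on the plus strand and 3.71% and 38.8% on the minus strand, and for 5hmC 39.2% with the window of 18 to 25 bases. The other 32 values stayed within their interval or within 1.5 times the count.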
